A study of Mus musculus with 3 samples.

Results

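The cells described here are fibroblasts of the mouse ventricle that carry RNA of C7, Scara5, Gfpt2 and Pi16. They were chosen by these measured values: at least 5 UMIs (counted RNA molecules) summed over the 4 genes and at most 1 UMI of Grm8, in barcodes that had first passed as fibroblasts. To pass as a fibroblast, a barcode needed at least 4 UMIs over Pdgfra, Dcn, Col1a2, Abca8a, Tcf21 and Dpt, at least 2 times the sum over 5 genes of endothelial cells, macrophages and pericytes (Ptprb, Pecam1, Csf1r, Mrc1 and Abcc9), and Ttn under 1% of its UMIs. The rule was met by 2477 of 18021 barcodes, or 2477 of 6591 fibroblasts, and the other 4114 fibroblasts served for comparison. They are called C7/Scara5 fibroblasts below.

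Fibroblasts that ensheathe vessels and fill connective tissue planes are known in many organs as adventitial or universal fibroblasts, and Pi16 and Dpp4 are among the genes that mark them. C7 is a component of the terminal complement pathway, which assembles a pore in target membranes. Scara5 is a scavenger receptor that binds ferritin. Gfpt2 directs fructose-6-phosphate into the hexosamine pathway, which supplies the UDP-N-acetylglucosamine that hyaluronan synthases use together with UDP-glucuronic acid. Pi16 encodes a secreted peptidase inhibitor.

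RNA was measured in droplets (10x Genomics) from frozen ventricles of C57B6 mice, with 3 hearts pooled into 1 library per group. In TAC+ART, the transverse aorta was constricted, so that the left ventricle pumps against raised pressure, and mice were given artesunate, an antimalarial drug of the artemisinin family. TAC mice had the same constriction and received vehicle, and Sham mice received vehicle without it. The sources used here do not say if the droplets held whole cells or nuclei.

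With 1 library per group there was no replicate and no test: every difference is between single pooled libraries, and each interval is a 95% interval that covers counting error only. Both comparisons, TAC+ART against TAC and TAC against Sham, use the TAC library, so that a high or low value there moves them in opposite directions. The TAC+ART library had 6856 barcodes and 33364667 UMIs, the TAC library 7413 and 37658150, and the Sham library 3752 and 17710689. Median UMIs per barcode were 4524.5 in TAC+ART, 4811 in TAC and 4310 in Sham. Between 20 and 27 barcode sequences were shared by each pair of libraries, and 0 of them belonged to C7/Scara5 fibroblasts in both. Levels are given as CPM, the UMIs of a gene in the named cells of 1 library after scaling all their UMIs to the same fixed total.

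C7/Scara5 fibroblasts made up 29.4% of fibroblasts in TAC+ART (interval 27.7 to 31.2%), 39.1% in TAC (37.2 to 40.9%) and 51.2% in Sham (48.4 to 53.9%). These were 771 of 2623 fibroblasts in TAC+ART, 1047 of 2680 in TAC and 659 of 1288 in Sham. The log2 ratio of the shares was -0.41 (-0.52 to -0.30) for TAC+ART over TAC and -0.39 (-0.49 to -0.29) for TAC over Sham. Of all barcodes, they were 11.2% in TAC+ART, 14.1% in TAC and 17.6% in Sham. The share was thus lower in TAC than in Sham and lower again in TAC+ART, and the 3 counting intervals did not overlap. The step between TAC+ART and TAC depended on Pi16, as the shares without it show. The step between TAC and Sham depended on C7 and on Scara5, by counts added after seeing the data. Without C7, 620 of 2623 fibroblasts reached 5 UMIs in TAC+ART, 838 of 2680 in TAC and 410 of 1288 in Sham. TAC and Sham were then about level, and TAC+ART was lower. Without Scara5, 557 of 2623 fibroblasts reached 5 UMIs in TAC+ART, 963 of 2680 in TAC and 506 of 1288 in Sham. TAC then lay closer to Sham than under the rule, and TAC+ART was lower than both. Because the rule counts UMIs of 4 genes, fewer such cells and less of these RNAs per cell cannot be told apart in these shares.

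The size of these differences depended on where the line was drawn. With at least 15 UMIs over the 4 genes, chosen as a stricter line after the data had been seen, 6.44% of fibroblasts remained in TAC+ART, 10.9% in TAC and 22.7% in Sham. The log2 ratio was then -0.75 for TAC+ART over TAC and -1.06 for TAC over Sham. With C7, Scara5 and Gfpt2 alone at 5 or more UMIs, a line also added after seeing the data, the shares were 19.0% in TAC+ART, 21.1% in TAC and 46.7% in Sham. Without Pi16, TAC+ART over TAC had a log2 ratio of -0.15 (-0.31 to 0.005), and TAC over Sham one of -1.15. The intervals of the shares then overlapped between TAC+ART (17.5 to 20.6%) and TAC (19.6 to 22.7%), so that a lower share in TAC+ART than in TAC was not beyond counting error without Pi16. When every barcode was thinned to 2500 UMIs and the lines were set at 3 UMIs, the shares were 27.6% in TAC+ART, 35.7% in TAC and 52.1% in Sham.

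**Figure D1:**
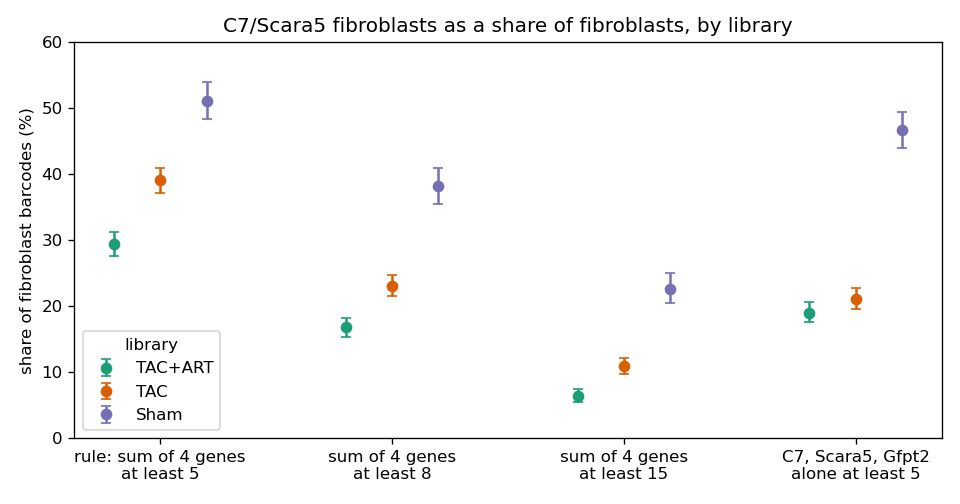
Share of fibroblast barcodes (%, y axis) that met 4 versions of the rule (x axis) in the TAC+ART, TAC and Sham libraries, with exact 95% binomial intervals of counting error. Sham is highest in each version drawn, and TAC+ART and TAC lie closest together when Pi16 is left out, at 19.0% and 21.1%. Versions without C7, where TAC and Sham are about level, and without Scara5, where they are closer than under the rule, are not drawn.

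The genes that define the cells did not move together across the libraries. C7 had 633 CPM in C7/Scara5 fibroblasts of TAC+ART, 759 CPM in TAC and 1838 CPM in Sham. Scara5 had 438 CPM in TAC+ART, 181 CPM in TAC and 680 CPM in Sham. C7 was therefore high in Sham alone, while Scara5 was low in TAC and nearer to Sham in TAC+ART. Gfpt2 had 309 CPM in TAC+ART, 467 CPM in TAC and 398 CPM in Sham. Pi16 had 530 CPM in TAC+ART, 777 CPM in TAC and 478 CPM in Sham. Gfpt2 and Pi16 were highest in TAC, the library where Scara5 was lowest. As these 4 genes made the rule, their levels describe the cells chosen and are not evidence about them.

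The same sum of 4 genes was therefore made up differently in each library. C7 gave 33.1% of it in TAC+ART, 34.7% in TAC and 54.2% in Sham. Pi16 gave 27.7% in TAC+ART, 35.6% in TAC and 14.1% in Sham. Scara5 gave 22.9% in TAC+ART, 8.30% in TAC and 20.0% in Sham. Pi16 was thus the largest contributor in TAC and Scara5 the smallest. A UMI of Pi16 was seen in 85.5% of the cells in TAC+ART, 93.2% in TAC and 59.0% in Sham, and one of Scara5 in 72.5% in TAC+ART, 43.7% in TAC and 81.5% in Sham. Pi16 alone would have met the rule in 26.1% of the cells in TAC+ART, 44.4% in TAC and 16.4% in Sham. UMIs of all 4 genes were seen in 21.7% of the cells in TAC+ART, 22.2% in TAC and 23.7% in Sham.

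**Figure D2:**
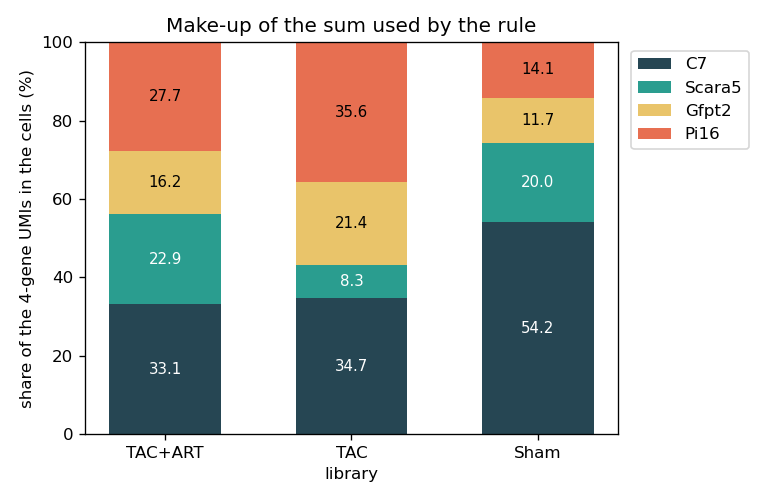
Share (%, y axis) of the UMIs of C7, Scara5, Gfpt2 and Pi16 that each gene gave in C7/Scara5 fibroblasts of the TAC+ART, TAC and Sham libraries. Pi16 gives 35.6% in TAC against 14.1% in Sham, and C7 gives 34.7% in TAC against 54.2% in Sham.

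Pi16 was also the rule gene seen most outside fibroblasts. Endothelial barcodes held 103 CPM of Pi16 in TAC+ART, 142 CPM in TAC and 51.8 CPM in Sham. After thinning to 2500 UMIs, 63.7% of C7/Scara5 fibroblasts had a UMI of Pi16 in TAC+ART, 73.3% in TAC and 43.3% in Sham, against 23.1%, 26.8% and 10.4% of endothelial barcodes in TAC+ART, TAC and Sham. The same shares for C7 were 44.8% in TAC+ART, 47.8% in TAC and 71.5% in Sham, and in endothelial barcodes at most 3.42%. Whether Pi16 UMIs of endothelial barcodes came from free RNA or from the cells themselves was not tested. The part of free Pi16 RNA in the number of cells that met the rule was not tested either. Median UMIs per barcode were 4638.5 in TAC+ART, 4917.5 in TAC and 4096 in Sham for endothelial barcodes.

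The line at 5 UMIs cut through a continuous range. The cells with 5 or 6 UMIs, just inside it, numbered 250 in TAC+ART, 301 in TAC and 130 in Sham, and fibroblasts with 3 or 4 UMIs, just outside, numbered 394 in TAC+ART, 489 in TAC and 161 in Sham. The median sum among the chosen cells was 8 UMIs in TAC+ART, 9 in TAC and 12 in Sham. They were also deeper than the rest, with a median of 6308 UMIs per barcode in TAC+ART, 6867 in TAC and 5213 in Sham, against 4205.5, 4095 and 3980 for other fibroblasts of TAC+ART, TAC and Sham. The limit on Grm8, a glutamate receptor gene, left out 34 barcodes in TAC+ART, 3 in TAC and 51 in Sham, which count among the other fibroblasts.

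Fibroblast markers were high in these cells, while single markers of adventitial fibroblasts were mixed. The 10 fibroblast markers summed to 14435 CPM in C7/Scara5 fibroblasts of TAC+ART, 11798 CPM in TAC and 10342 CPM in Sham, against 2388, 1998 and 990 CPM in endothelial barcodes of TAC+ART, TAC and Sham. In other fibroblasts they summed to 11263 CPM in TAC+ART, 8769 CPM in TAC and 8954 CPM in Sham. Cd34, a sialomucin of adventitial fibroblasts and also of endothelium, had 391 CPM in TAC+ART, 372 CPM in TAC and 354 CPM in Sham, against 228, 217 and 196 CPM in other fibroblasts of TAC+ART, TAC and Sham. Dpp4, a peptidase that marks these fibroblasts in other organs, had 48.9 CPM in TAC+ART, 33.1 CPM in TAC and 62.2 CPM in Sham. In other fibroblasts Dpp4 had 32.4 CPM in TAC+ART, 31.7 CPM in TAC and 41.5 CPM in Sham, so that it was higher in C7/Scara5 fibroblasts of TAC+ART and Sham and about level in TAC. Col15a1, a collagen usually given to parenchymal rather than adventitial fibroblasts, was not lower: it had 533 CPM in TAC+ART, 688 CPM in TAC and 270 CPM in Sham, 0.32, 0.37 and 0.06 above the level of other fibroblasts on the log2 scale. Against other fibroblasts as a whole, Col15a1 thus did not follow the adventitial name and Dpp4 followed it in TAC+ART and Sham. In Sham, though, Dpp4 was highest in fibroblasts with a 4-gene sum of 0, at 111 CPM. Most genes of a longer adventitial list, given further on, were higher in C7/Scara5 fibroblasts. The name C7/Scara5 fibroblasts stands for the rule, and does not mean that C7 and Scara5 lead in every library.

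Both remaining markers given with the cells, which the rule did not use, were higher in them. As they were given as markers of these cells, this is a description and not independent evidence. Plcxd3, a gene of the phospholipase C-like family, had 144 CPM in C7/Scara5 fibroblasts of TAC+ART, 144 CPM in TAC and 294 CPM in Sham, against 36.3 CPM, 18.5 CPM and 111 CPM in other fibroblasts of TAC+ART, TAC and Sham. Has2, the main hyaluronan synthase of mesenchymal cells, had 17.8 CPM in TAC+ART, 57.7 CPM in TAC and 27.5 CPM in Sham. In other fibroblasts Has2 had 5.04 CPM in TAC+ART, 9.93 CPM in TAC and 5.87 CPM in Sham. Has2 was thus the one of these markers that was high in TAC. In the GRCm38 gene models, C7 (chr15:4988762-5063740, minus strand) and Plcxd3 (chr15:4375491-4575553, plus strand) lie near each other on chromosome 15. Has2 is on the same chromosome at chr15:56665627-56694539 (minus strand), Scara5 at chr14:65666403-65764826 (plus), Gfpt2 at chr11:49794178-49838613 (plus) and Pi16 at chr17:29317680-29330593 (plus).

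Across the transcriptome few genes separated C7/Scara5 fibroblasts from other fibroblasts by 2-fold in every library. Of 5939 genes compared (at least 30 UMIs over the libraries and a mean of at least 30 CPM in these cells), 16 were at least 2-fold higher in all 3 libraries, or 0.269%, and 13 were at least 2-fold lower, or 0.219%. The rule used this contrast, so these counts and the genes below are a description. The 15 named genes among the higher ones fell into hyaluronan and hexosamine synthesis (Has2, Has2os and Uap1), receptors and surface proteins (Adgrd1, Adgrg2, Ackr3, Cd248, Sdk1, Tmem100), secreted or matrix-modifying proteins (Sema3c, Myoc, Hs3st1), and Plcxd3, Myrip and Ano3. The remaining higher gene was Gm34567, listed after its values were seen.

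Among the surface proteins, Tmem100 stood furthest apart. It had 23.7 CPM in TAC+ART, 49.3 CPM in TAC and 50.2 CPM in Sham, against 6.60 CPM, 7.04 CPM and 5.87 CPM in other fibroblasts of TAC+ART, TAC and Sham. Adgrd1, an adhesion G protein-coupled receptor, had 179 CPM in TAC+ART, 350 CPM in TAC and 274 CPM in Sham, against 64.8, 92.8 and 96.6 CPM in other fibroblasts of TAC+ART, TAC and Sham. Both genes were lowest in TAC+ART in these cells. Tmem100 was about level in TAC and Sham here, but with a 4-gene sum of 15 or more it had 120.8 CPM in TAC and 80.3 CPM in Sham. Cd248, or endosialin, a stromal surface glycoprotein, had 96.1 CPM in TAC+ART, 145 CPM in TAC and 83.0 CPM in Sham, against 33.7, 45.4 and 18.7 CPM in other fibroblasts of TAC+ART, TAC and Sham. Cd248 was highest in TAC, unlike the next surface genes. Sdk1, a homophilic adhesion molecule, had 293 CPM in TAC+ART, 253 CPM in TAC and 417 CPM in Sham. Adgrg2, another adhesion receptor, had 44.8 CPM in TAC+ART, 53.4 CPM in TAC and 65.8 CPM in Sham. Ackr3, a decoy receptor for the chemokine CXCL12, had 177 CPM in TAC+ART, 161 CPM in TAC and 194 CPM in Sham, and so varied little across the libraries.

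Of the secreted proteins, Sema3c, a semaphorin, had 77.5 CPM in TAC+ART, 71.7 CPM in TAC and 149 CPM in Sham. Myoc, the extracellular protein myocilin, had 63.8 CPM in TAC+ART, 27.6 CPM in TAC and 39.1 CPM in Sham. Hs3st1, a heparan sulfate sulfotransferase, had 63.8 CPM in TAC+ART, 61.3 CPM in TAC and 94.4 CPM in Sham. Sema3c and Hs3st1 were highest in Sham, and Myoc was highest in TAC+ART. Myrip, which links Rab27 to myosin, had 118 CPM in TAC+ART, 60.7 CPM in TAC and 224 CPM in Sham, but endothelial barcodes held 184, 131 and 164 CPM of it in TAC+ART, TAC and Sham. Ano3, an anoctamin, had 29.8 CPM in TAC+ART, 36.4 CPM in TAC and 40.5 CPM in Sham.

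Part of the lower genes were genes of endothelial cells. Mctp1, Prkch, Tmtc2, Adgrl4, Dach1, Ccdc85a, Akap6, Irag1, Arhgap15 and Blnk had the lowest ratios, with log2 values between -2.77 (Arhgap15 in TAC) and -0.99 (Blnk in TAC). Of these, Ccdc85a, Dach1, Adgrl4, Tmtc2 and Prkch had 868 CPM or more in endothelial barcodes of every library, against 69.1 CPM or less in C7/Scara5 fibroblasts. Blnk fell just short of 2-fold in TAC and is not among the 13 genes at least 2-fold lower in all 3 libraries. The remaining genes of the 13 were Emcn, Cyyr1, Notch3 and 2610307P16Rik, listed after their values were seen. The 9 endothelial markers summed to 505 CPM in C7/Scara5 fibroblasts of TAC+ART, 395 CPM in TAC and 370 CPM in Sham, and to 1217 CPM, 1101 CPM and 579 CPM in other fibroblasts of TAC+ART, TAC and Sham. The 10 macrophage markers summed to 262 CPM in TAC+ART, 317 CPM in TAC and 224 CPM in Sham, against 552 CPM, 864 CPM and 305 CPM in other fibroblasts of TAC+ART, TAC and Sham. All endothelial and macrophage markers were detected in both kinds of fibroblast. The 9 markers of T, NK or B cells summed to 33.5 CPM in C7/Scara5 fibroblasts of TAC+ART, 38.1 CPM in TAC and 30.8 CPM in Sham. Other fibroblasts held 155, 304 and 41.9 CPM of them in TAC+ART, TAC and Sham. The part of these marker lists in the lower genes was not tested. Grm8 itself had 70.6 CPM in other fibroblasts of TAC+ART, 3.31 CPM in TAC and 226 CPM in Sham, so the comparison cells also differed between libraries.

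Several genes outside the rule were graded along the 4-gene sum rather than stepping up at its line. Fibroblasts were grouped into those with a sum of 0, 1 to 4, 5 or 6, 7 to 14, and 15 or more UMIs. Cd34 was higher in each successive group of every library, and had 523 CPM in the top group of TAC+ART, 505 CPM in TAC and 440 CPM in Sham, against 205 CPM, 194 CPM and 178 CPM at a sum of 0 in TAC+ART, TAC and Sham. Fbn1, Mfap5 and Creb5 were likewise higher in each successive group of all 3 libraries. Fbn1, the fibrillin of microfibrils, reached 855 CPM in TAC+ART, 1845 CPM in TAC and 593 CPM in Sham. Plcxd3 had 265 CPM in the top group of TAC+ART, 338 CPM in TAC and 411 CPM in Sham, against 22.3, 10.9 and 59.9 CPM at a sum of 0 in TAC+ART, TAC and Sham. Creb5 and Efhd1, which encode a transcription factor and a mitochondrial calcium-binding protein, were singled out with values of these data known. Efhd1 had 47.3 CPM in the top group of TAC+ART, 40.4 CPM in TAC and 33.3 CPM in Sham, and 11.5 CPM or less in every other group. Dpp4 was not graded: in Sham it had 111 CPM at a sum of 0 and 78.0 CPM at 15 or more. In TAC+ART and TAC it was highest in the top group, at 91.9 and 63.7 CPM, against 44.0 and 34.9 CPM at a sum of 0. The groups between had less Dpp4 than a sum of 0 in both of these libraries. Col15a1 was lower at 15 or more than at 7 to 14 in each library. Depth also differed along the sum, with a median of 6623 UMIs in the top group of TAC+ART, 7615 in TAC and 5830.5 in Sham, against 3180, 2860.5 and 3074 at a sum of 0 in TAC+ART, TAC and Sham.

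**Figure D3:**
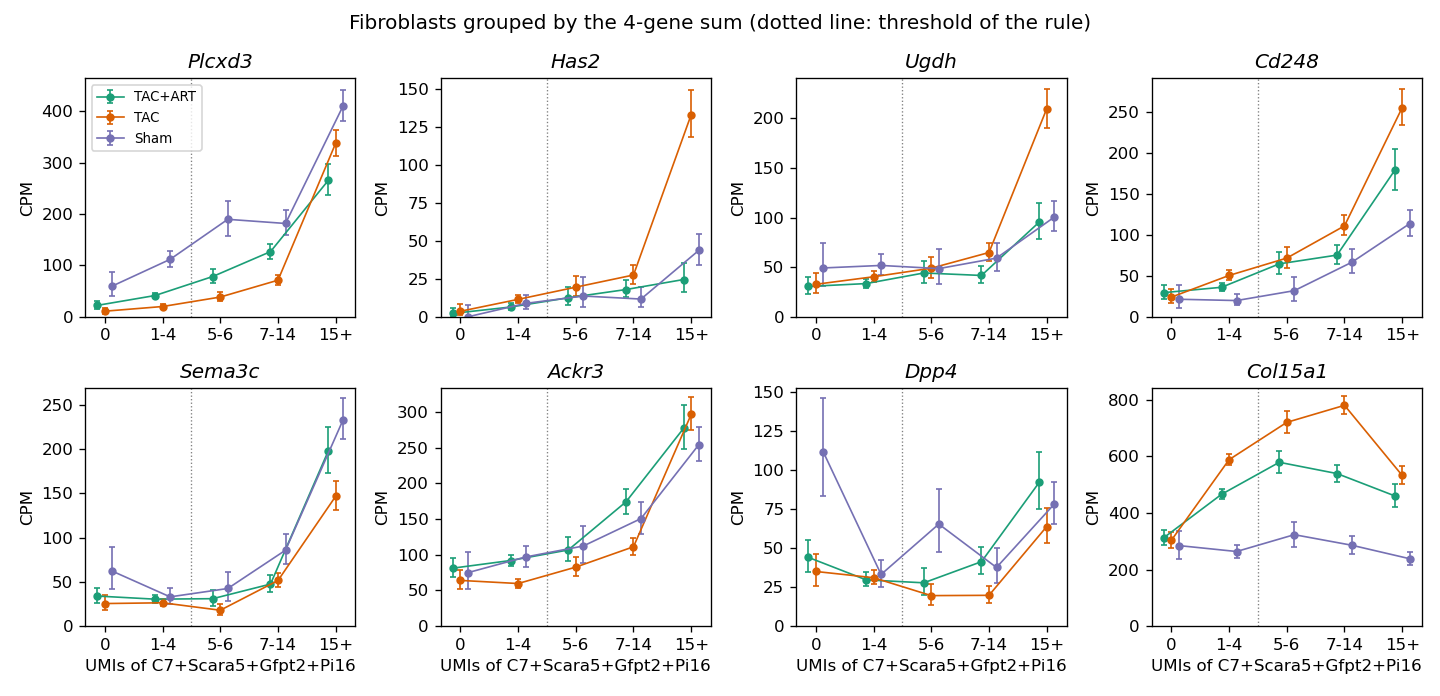
CPM (y axis) of 8 genes in fibroblasts grouped by the sum of C7, Scara5, Gfpt2 and Pi16 UMIs (x axis), in the TAC+ART, TAC and Sham libraries, with 95% Poisson intervals. The dotted line is the threshold of the rule. Has2 and Ugdh are high in TAC in the top group, at 133 and 210 CPM, and Dpp4 follows no steady order.

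Has2, Ugdh and Uap1, genes of hyaluronan synthesis, were highest in TAC, most of all in the cells with a 4-gene sum of 15 or more. These cells are not simply those richest in Scara5: Scara5 had 680 CPM there in TAC+ART, 348 CPM in TAC and 827 CPM in Sham, and Pi16 had 867 CPM in TAC+ART, 1194 CPM in TAC and 760.3 CPM in Sham. Genes outside this pathway also differed there, with Postn at 441 CPM in TAC+ART, 1229.8 CPM in TAC and 37.9 CPM in Sham. Has2 had 24.5 CPM in cells with a sum of 15 or more in TAC+ART, 133 CPM in TAC and 43.6 CPM in Sham, from 28, 286 and 76 UMIs in TAC+ART, TAC and Sham. In all C7/Scara5 fibroblasts the log2 ratio of Has2 was -1.69 (-2.05 to -1.36) for TAC+ART over TAC and 1.07 (0.75 to 1.40) for TAC over Sham. In the cells with 15 or more it was -2.42 (-3.05 to -1.88) for TAC+ART over TAC and 1.60 (1.24 to 1.99) for TAC over Sham. With C7, Scara5 and Gfpt2 alone, and so without Pi16, the ratios of Has2 were -2.12 (-2.55 to -1.74) for TAC+ART over TAC and 1.63 (1.30 to 1.99) for TAC over Sham. Gfpt2, a hexosamine gene, is part of the rule and of both narrower lines. It gave 16.2% of the 4-gene sum in TAC+ART, 21.4% in TAC and 11.7% in Sham. The part of choosing cells on Gfpt2 in the levels of Has2, Ugdh and Uap1 was not tested. Endothelial barcodes held at most 1.45 CPM of Has2. After thinning to 2500 UMIs, 3.67% of C7/Scara5 fibroblasts had a UMI of Has2 in TAC+ART, 9.63% in TAC and 3.88% in Sham.

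The enzymes that make the 2 sugar nucleotides of hyaluronan took the same order. Ugdh, which makes UDP-glucuronic acid, had 55.0 CPM in TAC+ART, 105 CPM in TAC and 77.2 CPM in Sham, and in the cells with a sum of 15 or more 95.4 CPM in TAC+ART, 210 CPM in TAC and 100.4 CPM in Sham. Uap1, which makes UDP-N-acetylglucosamine, had 167 CPM in TAC+ART, 345 CPM in TAC and 248 CPM in Sham. In the cells with 15 or more, Uap1 had 282 CPM in TAC+ART, 697 CPM in TAC and 343 CPM in Sham. The log2 ratio of Uap1 in all C7/Scara5 fibroblasts was -1.04 (-1.16 to -0.93) for TAC+ART over TAC and 0.47 (0.36 to 0.59) for TAC over Sham. In other fibroblasts the ratio of Ugdh was -0.22 for TAC+ART over TAC and -0.50 for TAC over Sham, and that of Uap1 was -0.54 for TAC+ART over TAC and 0.02 for TAC over Sham. The difference between the cells could not be tested with 1 library per group. Has1 was near the limit of detection, with 7.15 CPM in TAC+ART, 9.57 CPM in TAC and 9.44 CPM in Sham, and with a sum of 15 or more 8.76 CPM in TAC+ART, 18.6 CPM in TAC and 8.61 CPM in Sham. Has2os, the antisense RNA of Has2, did not share the order of Has2: it had 74.0 CPM in TAC+ART, 67.2 CPM in TAC and 101 CPM in Sham. The labels do not say if counting used strand, so the reads of Has2 and Has2os may not be fully separated.

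**Figure D4:**
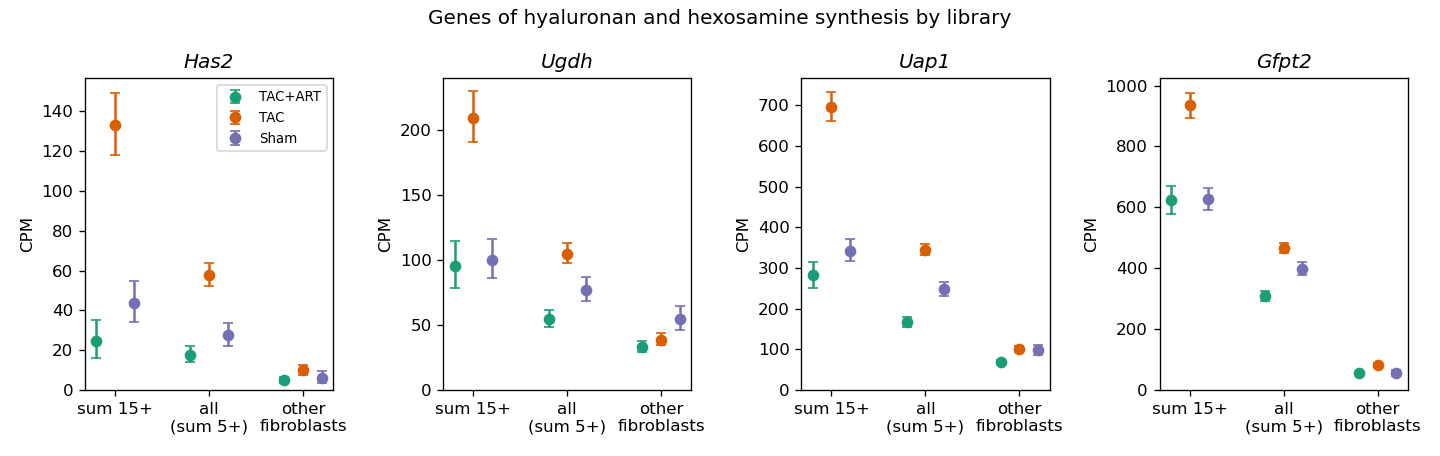
CPM (y axis, with 95% Poisson intervals) of Has2, Ugdh, Uap1 and Gfpt2 in fibroblasts with a 4-gene sum of 15 or more, in all C7/Scara5 fibroblasts and in other fibroblasts, in the TAC+ART, TAC and Sham libraries. TAC is highest among the cells with 15 or more, at 133 CPM for Has2 and 697 CPM for Uap1. Gfpt2 is part of the sum and so is high there by the rule.

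Of 24 hyaluronan and hexosamine genes, 12 were abundant enough to compare. Between C7/Scara5 fibroblasts and other fibroblasts, 8 of the 12 were higher in all 3 libraries and 3 lower in all 3 (Stab1, Cemip2 and Cd44), while of all genes compared 23.8% were higher in all 3 and 24.8% lower. Stab1 encodes a hyaluronan receptor of macrophages and sinusoidal endothelium, and Cd44 the main hyaluronan receptor. The list's median log2 ratio was -0.58 for TAC+ART over TAC and 0.61 for TAC over Sham, beside -0.05 for TAC+ART over TAC and 0.02 for TAC over Sham over all genes compared. In other fibroblasts the list's median was -0.49 for TAC+ART over TAC and 0.48 for TAC over Sham. Bgn, a small leucine-rich proteoglycan, had 989 CPM in TAC+ART, 1541 CPM in TAC and 315 CPM in Sham. Vcan, the hyaluronan-binding proteoglycan versican, had 344 CPM in TAC+ART, 641 CPM in TAC and 180 CPM in Sham. Both proteoglycan genes were highest in TAC and lowest in Sham. Tnfaip6, which links hyaluronan to heavy chains, differed little in all C7/Scara5 fibroblasts, with 27.6 CPM in TAC+ART, 34.4 CPM in TAC and 36.9 CPM in Sham. With a 4-gene sum of 15 or more, Tnfaip6 had 32.4 CPM in TAC+ART, 64.6 CPM in TAC and 43.0 CPM in Sham.

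Of 30 adventitial and universal fibroblast genes 21 could be compared, and 16 of these were higher in C7/Scara5 fibroblasts in all 3 libraries, with 1 lower in all 3, beside 23.8% higher and 24.8% lower of all genes compared. The list's median ratio to other fibroblasts was 0.49 in TAC+ART, 0.65 in TAC and 0.70 in Sham, and over all genes it was within 0.01 of 0. Cd248 and Sema3c led it. Igfbp5, a binding protein for insulin-like growth factors, was the lower one, with 95.9 CPM in TAC+ART, 69.6 CPM in TAC and 58.3 CPM in Sham, against 152, 128 and 119 CPM in other fibroblasts of TAC+ART, TAC and Sham. Il33, an alarmin, was close to other fibroblasts in Sham, with 82.5 CPM against 82.2 CPM. Across the libraries the list moved in both directions: 5 of the 21 were 2-fold higher and 2 were 2-fold lower in TAC than in Sham, where 6.65% of all genes compared were higher and 3.57% lower. Mfap5, a microfibril protein, had 539 CPM in TAC+ART, 946 CPM in TAC and 262 CPM in Sham, whereas Adamtsl3, an ADAMTS-like matrix protein, had 481 CPM in TAC+ART, 237 CPM in TAC and 658 CPM in Sham.

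Matrix genes of microfibrils and elastic fibres were also mostly higher in these cells than in other fibroblasts, 14 of 19 compared in all 3 libraries and 0 lower in all 3. Of all genes compared, 23.8% were higher in all 3 and 24.8% lower in all 3. Fbln2 (fibulin-2) had 678 CPM in TAC+ART, 826 CPM in TAC and 286 CPM in Sham, against 435, 523 and 181 CPM in other fibroblasts of TAC+ART, TAC and Sham. Of 27 fibrillar collagen and matrix genes, 16 were higher in all 3 and 1 lower in all 3. Col14a1, a collagen that binds fibrils, had 167 CPM in TAC+ART, 175 CPM in TAC and 82.2 CPM in Sham, against 75.6, 97.7 and 32.7 CPM in other fibroblasts of TAC+ART, TAC and Sham. Both matrix lists were thus higher in these cells, as a description of the cells chosen. The 10 fibroblast markers, given above, also summed to more in them than in other fibroblasts. Whether the matrix lists go beyond that general difference was not tested. Of 11 complement genes compared, 7 were higher in all 3 libraries and 1 lower in all 3, with Cd55, an inhibitor of complement convertases, at 164 CPM in TAC+ART, 156 CPM in TAC and 148 CPM in Sham, against 86.4, 82.4 and 73.8 CPM in other fibroblasts of TAC+ART, TAC and Sham. C3, the central complement component, had 312 CPM in TAC+ART, 536 CPM in TAC and 196 CPM in Sham. Iron-handling genes, listed because Scara5 binds ferritin, were as often higher (3 of 12) as lower (3 of 12) in all 3 libraries, near the shares over all genes compared.

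Matrix and activation genes of C7/Scara5 fibroblasts were higher in TAC than in Sham, and genes of resting fibroblasts lower. In TAC, 395 of 5939 genes (6.65%) were at least 2-fold higher than in Sham and 212 (3.57%) at least 2-fold lower. Of 17 activated fibroblast genes compared, 11 were 2-fold higher and 1 lower, with a median log2 ratio of 3.22, beside 0.02 over all genes. Of 27 fibrillar collagen and matrix genes 17 were higher and 1 lower (median 1.10), and of 19 elastic fibre genes 11 were higher and 1 lower (median 1.36). Of 25 resting fibroblast genes 2 were higher and 16 lower (median -1.47). In other fibroblasts the medians for TAC over Sham were 2.67 for activated and -2.12 for resting genes. They were 0.93 there for fibrillar collagen and matrix genes and 1.21 for elastic fibre genes. These directions were thus not particular to C7/Scara5 fibroblasts. The activated and resting lists were drawn up with earlier results of these libraries known and are not independent evidence of direction.

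Postn, the matricellular protein periostin, had 488 CPM in TAC+ART, 1032 CPM in TAC and 59.97 CPM in Sham. Its log2 ratio was -1.08 (-1.15 to -1.01) for TAC+ART over TAC and 4.10 (3.91 to 4.31) for TAC over Sham. Endothelial barcodes held 87.2 CPM of Postn in TAC+ART, 249 CPM in TAC and 17.8 CPM in Sham, the same order at lower levels. Thbs4, a thrombospondin, had 18.6 CPM in TAC+ART, 73.0 CPM in TAC and 0.278 CPM in Sham, where it rested on 1 UMI. Its log2 ratio was 7.46 for TAC over Sham, with an interval of 5.55 to 13.35. Comp, cartilage oligomeric matrix protein, had 25.8 CPM in TAC+ART, 72.6 CPM in TAC and 1.67 CPM in Sham. Cilp, a matrix protein of cartilage and fibrotic heart, had 184 CPM in TAC+ART, 423 CPM in TAC and 19.4 CPM in Sham. All 4 of these genes were lowest in Sham and intermediate in TAC+ART.

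Ltbp2 and Adamtsl2, which bind the TGF-beta complex or microfibrils, were also among the 10 genes highest in TAC over Sham. Ltbp2 had 67.5 CPM in TAC+ART, 263 CPM in TAC and 12.8 CPM in Sham, and Adamtsl2 had 204 CPM in TAC+ART, 271 CPM in TAC and 23.3 CPM in Sham. Adamtsl2 stayed nearest to TAC in TAC+ART. Meox1, a homeobox transcription factor of activated fibroblasts, had 61.3 CPM in TAC+ART, 166 CPM in TAC and 12.8 CPM in Sham. Nppa and Acta1, a natriuretic peptide and skeletal actin made by loaded cardiomyocytes, were on the list too. Endothelial barcodes held 69.1 CPM of Nppa in TAC+ART, 281 CPM in TAC and 12.998 CPM in Sham, against 57.0 CPM, 187 CPM and 10.8 CPM in C7/Scara5 fibroblasts of TAC+ART, TAC and Sham. Cardiomyocyte markers summed to 4460 CPM in C7/Scara5 fibroblasts of TAC+ART, 4440 CPM in TAC and 4087 CPM in Sham.

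The fibrillar collagens were higher in TAC by smaller ratios. Col1a1 had 480 CPM in TAC+ART, 708 CPM in TAC and 163 CPM in Sham, and Col3a1 had 932 CPM in TAC+ART, 1412 CPM in TAC and 454 CPM in Sham. The log2 ratio of Col1a1 was -0.56 (-0.63 to -0.49) for TAC+ART over TAC and 2.12 for TAC over Sham. Tgfb1, the profibrotic cytokine, had 36.2 CPM in TAC+ART, 104 CPM in TAC and 29.7 CPM in Sham. Timp1, an inhibitor of matrix metalloproteinases, had 19.6 CPM in TAC+ART, 105 CPM in TAC and 11.9 CPM in Sham. For Tgfb1 and Timp1, TAC+ART lay closer to Sham than to TAC, while for both collagens it lay between the other libraries.

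The genes lowest in TAC relative to Sham included receptors, enzymes and matrix proteins. Ccbe1, a secreted protein needed for VEGF-C processing, had 288 CPM in TAC+ART, 67.6 CPM in TAC and 852 CPM in Sham. Its log2 ratio was 2.09 (1.94 to 2.25) for TAC+ART over TAC and -3.66 (-3.80 to -3.52) for TAC over Sham. Inmt, an indole N-methyltransferase, had 33.3 CPM in TAC+ART, 10.3 CPM in TAC and 117 CPM in Sham, and Mme, the peptidase neprilysin, had 63.0 CPM in TAC+ART, 16.4 CPM in TAC and 143 CPM in Sham. Ptgfr, the prostaglandin F receptor, had 35.4 CPM in TAC+ART, 9.001 CPM in TAC and 64.1 CPM in Sham. These 4 genes were lowest in TAC. Efemp1 (fibulin-3) had 65.0 CPM in TAC+ART, 35.0 CPM in TAC and 208 CPM in Sham. Lrrtm3, Ntrk3, Col6a6, Hlf and Tll2 completed the 10, with log2 ratios for TAC over Sham from -3.13 (Lrrtm3) to -2.40 (Tll2). All 10 genes were higher in TAC+ART than in TAC, and lower there than in Sham.

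In TAC+ART, 74 genes (1.25%) were at least 2-fold higher than in TAC and 50 (0.842%) at least 2-fold lower. Of the 17 activated fibroblast genes, 0 were 2-fold higher and 10 lower (median -1.11), and of the 25 resting genes 13 were higher and 1 lower (median 1.04), beside a median of -0.05 over all genes. In other fibroblasts these medians were -1.03 for activated and 1.35 for resting genes. Kcnip1, Hlf, Ccbe1, Gsta3, Cacnb4, Ptgfr, Mme, Fam13a, Abca6 and Inmt had the highest ratios of TAC+ART over TAC. Kcnip1, a potassium channel-interacting protein, had 193 CPM in TAC+ART, 34.0 CPM in TAC and 164 CPM in Sham, with a log2 ratio of 2.51 (2.30 to 2.72) for TAC+ART over TAC. With a 4-gene sum of 15 or more, Kcnip1 had 53.4 CPM in TAC+ART, 6.04 CPM in TAC and 118 CPM in Sham, so that TAC+ART was then below Sham. Gsta3, a glutathione transferase, had 244 CPM in TAC+ART, 60.01 CPM in TAC and 287 CPM in Sham. Abca6, a lipid transporter of the ABC family, had 818 CPM in TAC+ART, 244 CPM in TAC and 1088 CPM in Sham.

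The genes lowest in TAC+ART over TAC included Timp1, Mt2, Serpina3n, Thbs4, Ltbp2, Errfi1, Egr1, Arntl and Gem. Timp1 led with a log2 ratio of -2.41 (-2.74 to -2.11). Mt2, a metallothionein, had 17.99 CPM in TAC+ART, 92.7 CPM in TAC and 13.05 CPM in Sham, and Serpina3n, an acute phase serine protease inhibitor, had 40.5 CPM in TAC+ART, 169 CPM in TAC and 24.7 CPM in Sham. Timp1, Mt2 and Serpina3n were closer to Sham than to TAC in TAC+ART. Errfi1, a feedback inhibitor of the EGF receptor, had 76.2 CPM in TAC+ART, 297 CPM in TAC and 147 CPM in Sham. Egr1, an immediate early transcription factor, had 28.6 CPM in TAC+ART, 96.4 CPM in TAC and 55.2 CPM in Sham, and Gem, a small GTPase, 18.8 CPM in TAC+ART, 62.4 CPM in TAC and 37.5 CPM in Sham. Errfi1, Egr1 and Gem were thus lower in TAC+ART than in Sham as well.

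The TAC+ART library still differed from Sham. Of 5939 genes, 153 (2.58%) were at least 2-fold higher in TAC+ART than in Sham and 41 (0.69%) at least 2-fold lower. The log2 ratio for TAC+ART over Sham was 3.02 for Postn, 3.12 for Adamtsl2, 1.56 for Col1a1 and -1.56 for Ccbe1. Plcxd3, a marker that the rule did not use, had a log2 ratio of -1.03 (-1.17 to -0.89) for TAC+ART over Sham, and of -0.00 (-0.14 to 0.14) for TAC+ART over TAC. The latter depended on the rule. It was -0.35 (-0.55 to -0.15) with a 4-gene sum of 15 or more. With C7, Scara5 and Gfpt2 alone it was -0.28 (-0.44 to -0.13).

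Stress, acute phase and clock genes also differed between the libraries. Of all genes compared, 1.25% were 2-fold higher and 0.842% lower for TAC+ART over TAC. For TAC over Sham, 6.65% were 2-fold higher and 3.57% lower. Acute phase and metallothionein genes had a median of -0.50 for TAC+ART over TAC (0 of 12 higher and 5 lower by 2-fold) and 0.92 for TAC over Sham (5 higher, 0 lower). Immediate early and heat shock genes had -0.70 for TAC+ART over TAC (0 of 13 higher, 4 lower) and 0.85 for TAC over Sham (5 higher, 0 lower), with Hsph1, a heat shock co-chaperone, at 20.9 CPM in TAC+ART, 59.3 CPM in TAC and 16.4 CPM in Sham. Genes of the unfolded protein response had -0.39 for TAC+ART over TAC (0 of 15 higher, 1 lower) and 0.64 for TAC over Sham (5 higher, 0 lower), with Hspa5, the chaperone BiP, at 126 CPM in TAC+ART, 265 CPM in TAC and 86.6 CPM in Sham. These 3 lists were thus lower in TAC+ART than in TAC and higher in TAC than in Sham at their medians. Other fibroblasts had the same directions. Their medians, in the same order of lists, were -0.48, -0.60 and -0.50 for TAC+ART over TAC. For TAC over Sham they were 0.87, 1.23 and 0.57. Circadian clock genes had 0.51 for TAC+ART over TAC (5 of 15 higher, 2 lower) and -1.15 for TAC over Sham (2 higher, 8 lower). In other fibroblasts the clock medians were 0.81 for TAC+ART over TAC and -1.25 for TAC over Sham. Arntl, which drives the clock, had 20.0 CPM in TAC+ART, 66.9 CPM in TAC and 6.94 CPM in Sham, while Per3, a repressor, had 192 CPM in TAC+ART, 59.7 CPM in TAC and 285 CPM in Sham. The time of day of tissue collection was not in the labels.

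**Figure D5:**
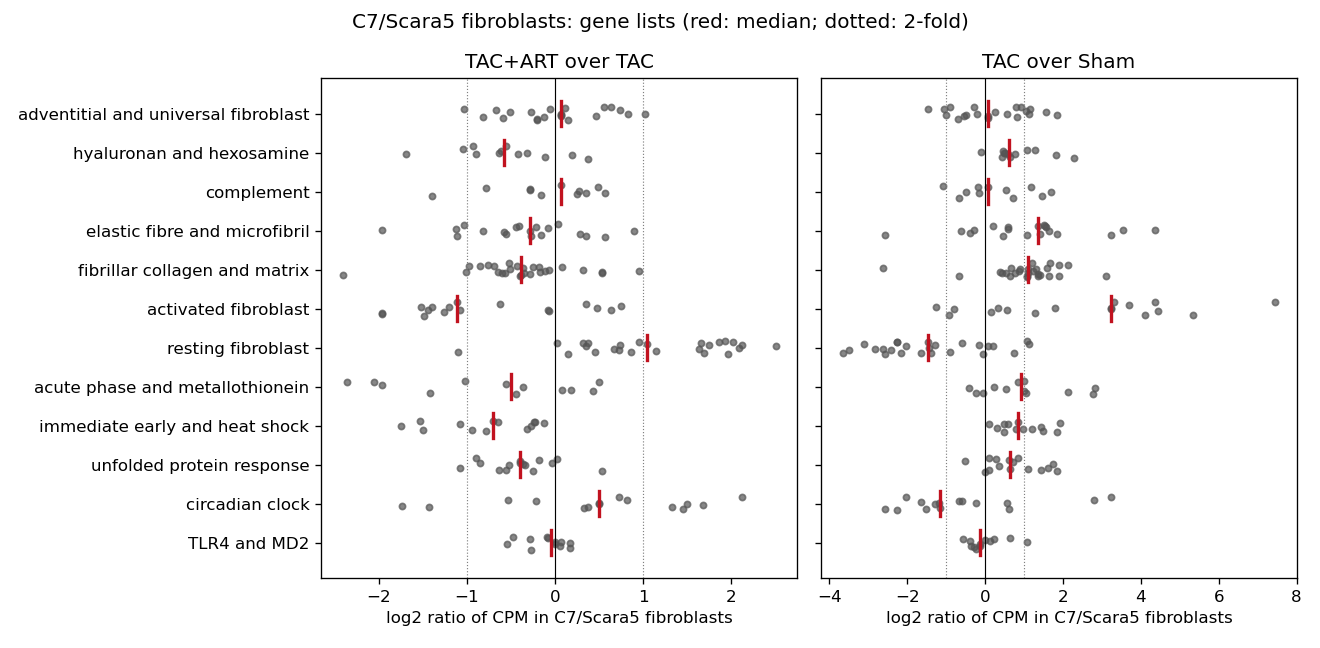
Log2 ratio of CPM in C7/Scara5 fibroblasts (x axis) for each compared gene (points) of 12 lists (y axis), for TAC+ART over TAC on the left and TAC over Sham on the right; red bars are list medians. Activated genes have a median of -1.11 for TAC+ART over TAC and 3.22 for TAC over Sham, and the TLR4 and MD2 list stays near 0 in both.

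TGF-beta signalling genes had a median of -0.27 for TAC+ART over TAC (0 of 25 higher, 1 lower) and 0.55 for TAC over Sham (6 higher, 0 lower). Beside these 2-fold counts, 1.25% of all genes compared were higher and 0.842% lower for TAC+ART over TAC. The shares for TAC over Sham were 6.65% and 3.57%. Ccn2, a TGF-beta target, had 282 CPM in TAC+ART, 435 CPM in TAC and 46.1 CPM in Sham. NF-kB targets had -0.52 for TAC+ART over TAC (0 of 10 higher, 0 lower) and 0.64 for TAC over Sham (2 higher, 0 lower). In other fibroblasts TGF-beta signalling had medians of -0.26 for TAC+ART over TAC and 0.52 for TAC over Sham. NF-kB targets had -0.51 and 0.50 there. As the study's title names MD2, its gene Ly96 was read out: it had 11.4 CPM in TAC+ART, 15.002 CPM in TAC and 15.8 CPM in Sham, under the level needed for comparison. Endothelial barcodes held 26.6 CPM of Ly96 in TAC+ART, 21.9 CPM in TAC and 21.4 CPM in Sham, more than these fibroblasts, so that Ly96 UMIs here were no higher than in endothelial cells. Its receptor partner Tlr4 had 115 CPM in TAC+ART, 102 CPM in TAC and 124 CPM in Sham, and the co-receptor Cd14 had at most 4.14 CPM. For the TLR4 and MD2 list the median was -0.04 for TAC+ART over TAC (0 of 12 higher, 0 lower) and -0.13 for TAC over Sham (1 higher, 0 lower). Il6, an inflammatory cytokine, had 0.409 CPM in TAC+ART, 6.57 CPM in TAC and 1.39 CPM in Sham.

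The remaining lists had medians between -0.24 and 0.41 for TAC over Sham. Iron-handling genes had 0 of 12 2-fold higher and 1 lower for TAC+ART over TAC, with 9 of 12 lower by any amount, and 5 of 12 2-fold higher and 1 lower for TAC over Sham, with 9 of 12 higher by any amount. Scavenger and lipid uptake receptors had 3 of 9 2-fold higher and 0 lower for TAC+ART over TAC, and 0 of 9 higher and 3 lower for TAC over Sham. Over all genes compared the 2-fold shares were 1.25% higher and 0.842% lower for TAC+ART over TAC. They were 6.65% higher and 3.57% lower for TAC over Sham. Medians for TAC+ART over TAC were -0.08 for iron handling, 0.28 for scavenger and lipid uptake receptors, 0.07 for complement, 0.07 for WNT, BMP and hedgehog modulators, 0.14 for chemokines and cytokines, 0.16 for growth factor ligands and receptors and 0.15 for fibroblast transcription factors. For TAC over Sham they were 0.41 for iron handling, -0.19 for scavenger and lipid uptake receptors, 0.08 for complement, 0.05 for WNT, BMP and hedgehog modulators, -0.24 for chemokines and cytokines, 0.09 for growth factors and -0.23 for transcription factors. Ebf2, a transcription factor of mesenchymal progenitors, had 1630.3 CPM in TAC+ART, 959.6 CPM in TAC and 2642 CPM in Sham. Fgf7, a growth factor for epithelia, had 36.6 CPM in TAC+ART, 12.1 CPM in TAC and 48.9 CPM in Sham. Of 23 cell cycle genes, 0 reached the level needed for comparison.

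Other fibroblasts also differed between the libraries. On the same 5939 genes, other fibroblasts had 75 genes 2-fold higher and 45 lower for TAC+ART over TAC, and 467 higher and 242 lower for TAC over Sham. The TAC over Sham ratio of C7/Scara5 fibroblasts lay within -0.19 to 0.17 of that of other fibroblasts for the middle 50% of genes, and was over 1 higher for 15 genes and over 1 lower for 59. Which of these gaps exceed chance was not tested. The 12 genes with the widest gap in each direction, chosen after their values were seen, included Csmd1 and Ret among the higher ones. Csmd1, a large membrane protein with complement-control domains, had 94.9 CPM in TAC+ART, 235 CPM in TAC and 27.2 CPM in Sham, against 208, 284 and 177 CPM in other fibroblasts of TAC+ART, TAC and Sham. Ret, a receptor tyrosine kinase for GDNF-family ligands, had 37.2 CPM in TAC+ART, 44.9 CPM in TAC and 67.7 CPM in Sham, against 18.4, 12.8 and 48.8 CPM in other fibroblasts of TAC+ART, TAC and Sham. Among the lower ones, Galnt18 and Ldb2 had 702 CPM and 647 CPM or more in endothelial barcodes of every library.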

How the data were processed

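The deposited files hold unnormalised UMI counts, with 1 gene-by-barcode matrix for every library. Per the submitters' processing notes, Cell Ranger, Seurat and the mm10 build were used; their versions, the annotation and any cell filter were not stated. No further filter on barcodes was applied. Doublets were not removed, and leaving out the barcodes with the highest doublet scores (simulated doublets) was an alternative. The cells, gene lists and tests were chosen with earlier results of these data known.

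Counts were summed over the cells of 1 library, scaled to CPM, and compared as log2 ratios with 0.5 UMIs added to each sum. Intervals are exact binomial for shares (Clopper-Pearson), by the delta method for share ratios, exact conditional binomial for gene ratios and exact Poisson for levels; molecules are UMIs, and intervals cover counting error only. Genes compared had at least 30 UMIs over the 3 libraries and a mean of 30 CPM. Named genes were the 15 highest and 10 lowest against other fibroblasts by the smallest log2 ratio over the libraries, the 10 highest and 10 lowest of each comparison, the 2 highest and 2 lowest of each list, and a set list of markers and pathway genes; rule genes, mitochondrial, ribosomal, sex-linked and predicted genes and markers of other cells were not ranked. The text gives part of the list genes. Some genes that the rule named are not reported here. Endothelial barcodes were gated on Ptprb and Pecam1. Thinning drew 2500 UMIs per barcode, and left out 8 C7/Scara5 fibroblasts in TAC+ART, 40 in TAC and 14 in Sham. Gene positions are from GRCm38 gene models. The gate and ratios were tested on simulated data. Python 3.11.15, numpy 2.4.6, scipy 1.17.1, pandas 2.3.3, scanpy 1.11.5 and matplotlib 3.10.9 were used.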

Additional observations from a re-analysis of the deposited data

How the results depend on the processing

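No paired analysis was possible because each group has 1 library. No replicate could be left out for the same reason. For TAC over Sham the log2 ratio of shares was -0.72 with a 4-gene sum of at least 8, -0.15 with at least 3, -0.54 after thinning and -0.58 with at most 8000 UMIs per barcode. With a sum of at least 15, or C7, Scara5 and Gfpt2 alone, both chosen after seeing the data, it was -1.06 and -1.15, and for TAC+ART over TAC -0.75 and -0.15 (-0.31 to 0.005). With C7 left out instead, 620 of 2623 fibroblasts met the line in TAC+ART, 838 of 2680 in TAC and 410 of 1288 in Sham, about level between TAC and Sham. With Scara5 left out, 557 of 2623 met it in TAC+ART, 963 of 2680 in TAC and 506 of 1288 in Sham. The cause was not tested. Genes higher than in other fibroblasts in all 3 libraries numbered 8 with a mean CPM of at least 100, 27 against others with a sum of at most 1, and 36 with a sum of at least 15. Genes lower numbered 0 at 100 CPM, 21 with barcodes weighted equally and 52 against others with a sum of at most 1. At 100 CPM, where 2168 genes are compared, TAC over Sham had 166 higher and 82 lower genes, and TAC+ART over TAC 31 and 13. With a sum of at least 15, 174 ratios of named genes moved beyond their interval and 206 did not; 112 moved with C7, Scara5 and Gfpt2 alone and 61 with at least 8. Tmem100, TAC over Sham, was 0.59 (0.29 to 0.90) at 15, against -0.03. The cause was not tested. Depth limits Has1, Il6, Ly96 and Cd14, which had few UMIs.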
